A study of Mus musculus with 6 samples.

Results

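The potassium channel genes described here are the protein-coding mouse genes whose symbol starts with Kcn. They were chosen by raw counts: a gene was kept if it had at least 10 counts in 3 or more of the 6 libraries, and 72 of the 90 protein-coding Kcn genes in a table of 32371 genes met this rule. The libraries are RNA-Seq of retinal ganglion cells (RGCs), the neurons whose axons form the optic nerve, from adult C57BL/6J mice, and the study asked how Ezh2 and a mutant of it act on RGCs while their axons regrow. The 3 GFP libraries came from retinas given AAV2-GFP, and the 3 Ezh2-Y726D libraries from retinas given AAV2-Ezh2-Y726D, an Ezh2 without methyltransferase activity. All mice had the virus placed in the vitreous, an optic nerve crush (ONC) 2 weeks later, and their retinal cells dissociated and sorted 3 days after the ONC. The sort kept live cells positive for CD90.2, the product of Thy1. Both groups therefore carried a virus and an injury, and no uninjured or uninjected retina is among these libraries. AAV2 in the vitreous can enter retinal cells other than RGCs, and the sources used here do not state whether the retinas of several mice made up a library, so the p-values measure the spread between these libraries.

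Potassium channels let potassium leave or enter the cell and so set its resting potential, shape its action potentials and limit how often it fires. Voltage-gated channels (Kcna to Kcnd, Kcnh and Kcnq) are opened by depolarisation. Inward rectifiers (Kcnj) pass current best near rest, and some of them open on G protein signals or close on ATP. Two-pore channels (Kcnk) carry the background leak, and calcium-activated channels (Kcnma and Kcnn) follow each action potential. Silent subunits (Kcnf, Kcng, Kcns and Kcnv) do not conduct alone and modify the channels they join, and auxiliary subunits (Kcnab, Kcnip, Kcne and Kcnmb) change how fast a pore opens and closes or how many reach the membrane. In the retina, ganglion and amacrine cells rely on voltage-gated channels for spiking, photoreceptors on Kcnb and Kcnv2 subunits, and Müller glia on Kcnj10 to clear potassium.

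Depth and purity bear on every value below. Total counts ran from 9333244 to 23782520, and the rRNA gene CT010467.1 took 6.59% of them in GFP replicate 1, 50.9% in GFP replicate 2 and 52.2% in GFP replicate 3, but 2.55% to 16.1% in the Ezh2-Y726D libraries. Levels are given as TMM-scaled CPM, the counts of a gene relative to the scaled size of its library, which correct for such a share. Ezh2, the overexpressed gene, read 22.7, 23.9 and 26.4 CPM in the GFP libraries and 65.2, 65.6 and 65.2 CPM in the Ezh2-Y726D libraries. RGC markers were present, with Slc17a6 at 76.2 to 86.1 CPM, but the libraries also held rod, Müller glia and bipolar markers. The 13 RGC markers summed to 507 to 523 CPM in the GFP libraries and 513 to 548 CPM in the Ezh2-Y726D libraries, and 3 were called higher and 1 lower. The 11 amacrine markers summed to 1103 to 1177 and 1681 to 1746 CPM, with 9 of 10 tested called higher. The 10 bipolar markers summed to 1213 to 1234 and 958 to 982 CPM (9 lower), the 7 cone markers to 411 to 433 and 272 to 287 CPM (6 lower), the 12 microglia and macrophage markers to 988 to 1102 and 568 to 666 CPM (9 lower), and the 6 pericyte markers to 213 to 231 and 166 to 179 CPM (5 lower). The 9 rod markers summed to 5989 to 6198 and 6534 to 6788 CPM (3 higher), the 9 Müller glia markers to 8447 to 8904 and 7060 to 7308 CPM (2 higher, 4 lower), and all 7 T cell markers were lower. Of the horizontal cell, B cell and endothelial markers tested, 1 of 4, 2 of 5 and 2 of 7 were lower and 0 higher. Each of these markers had more than 3 counts in at least 1 library. In sorted bulk samples, more cells of a type and more RNA per cell cannot be told apart, and the part of these cell types in the potassium channel results was not tested.

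**Figure D1:**
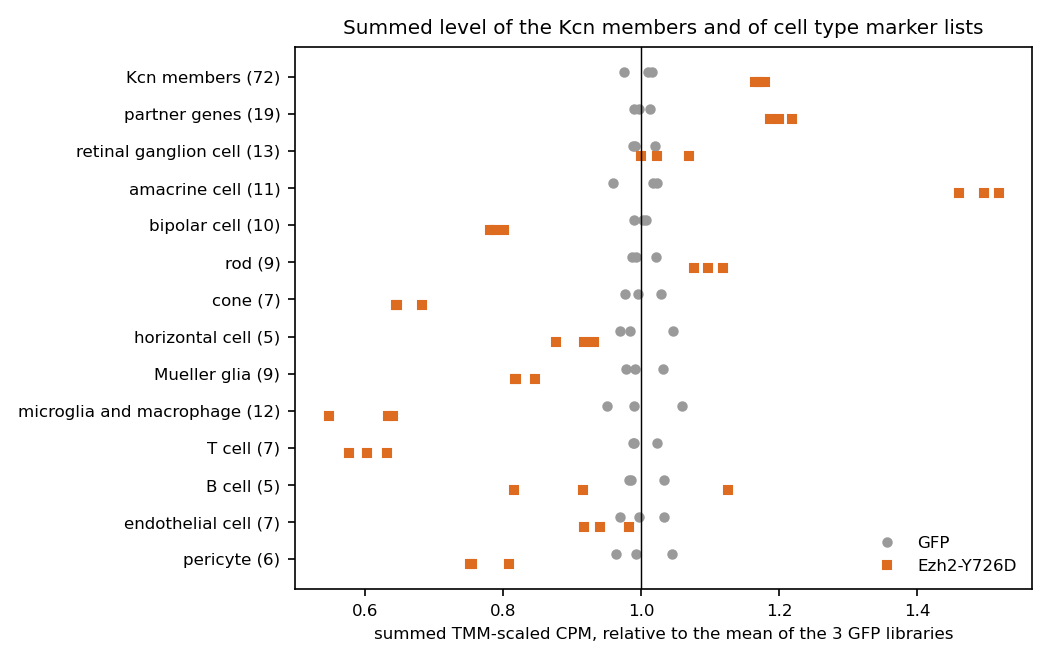
Summed TMM-scaled CPM of the 72 Kcn members, of partner genes and of marker lists for retinal cell types in each of the 6 libraries, divided by the mean of the 3 GFP libraries. Gray circles are GFP libraries and orange squares Ezh2-Y726D libraries, and the number of genes summed is in parentheses. The Kcn members and the amacrine markers lie above their GFP libraries, the RGC markers overlap theirs, and the bipolar, cone, microglia and pericyte markers lie below.

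The potassium channel genes as a family were higher with Ezh2-Y726D. Summed over the 72 members, the level was 2575, 2590 and 2485 CPM in the GFP libraries and 2973, 3008 and 2986 CPM in the Ezh2-Y726D libraries, so that the groups did not overlap. In edgeR's quasi-likelihood test, with p-values adjusted by Benjamini-Hochberg over 18138 genes, 33 members were higher at an adjusted p under 0.05, 7 were lower and 32 were not called. Over all genes tested, 13.9% were called higher and 13.6% lower, against 45.8% and 9.72% of the members. With a fold change over 1.5 as a second requirement, 12 members were higher and 5 lower, where the background was 2.52% higher and 5.50% lower. In 38 members every Ezh2-Y726D library was above every GFP library (19.7% of all genes tested), and in 10 every one was below (18.9%). All 40 called members were among these. The median log2 fold change of the members was 0.26, that of all genes 0.00, and that of the 10 amacrine markers tested 0.53. The members ran from -0.74 to 1.02, and the part of cell types in these rises and falls was not tested. Without the 2 GFP libraries in which rRNA took most counts, 29 members were higher and 7 lower, and the median was 0.23. That fit had 1 GFP library, which is assumed to vary like the Ezh2-Y726D libraries that give all of its spread. Without GFP replicate 1, the deepest of its group, 32 were higher and 4 lower, and 2 were lower with the fold. Without Ezh2-Y726D replicate 1, 3 were lower with the fold. The count rule itself can let in genes that are high in 1 group, since 11 members, Kcng3 among them, met it through the Ezh2-Y726D libraries alone. In the fit of genes with at least 10 counts in every library, 59 members were tested. Of these 32 were higher and 6 lower, and 11 and 4 with the fold.

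Calls depended on level. Of the 42 members with a mean of at least 10 CPM, 28 were higher and 4 lower (66.7% and 9.52%), whereas among the 10490 genes of that level 19.4% were higher and 15.3% lower. Of the 30 members under 10 CPM, 5 were higher and 3 lower (16.7% and 10%), beside 6.42% and 11.3% of the 7648 genes under 10 CPM, so that the share lower was near that of all such genes. The standard error of the log2 fold change ran from 0.040 among the abundant members to 0.49 for Kcns1, which had 1 to 16 counts. For the rarest members a change of the size seen in the abundant ones was therefore not detectable at this depth.

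**Figure D2:**
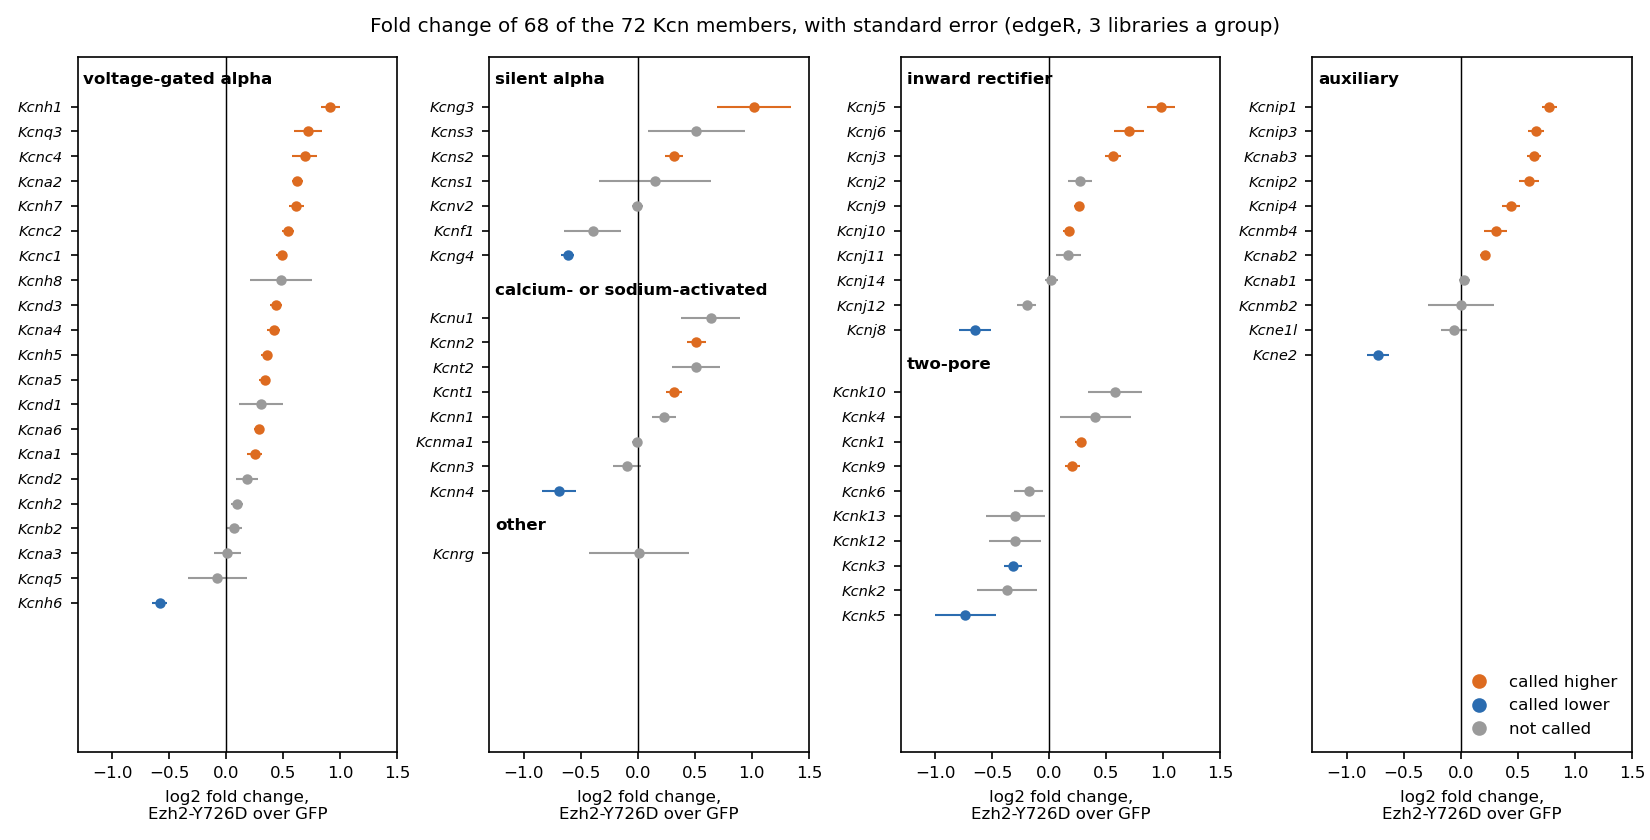
Log2 fold change of 68 of the 72 members, Ezh2-Y726D over GFP, with its standard error from edgeR (3 libraries a group), grouped by the role of the subunit. Orange marks members called higher, blue members called lower and gray members not called at an adjusted p of 0.05. Most voltage-gated and auxiliary subunits lie right of 0, whereas the two-pore channels lie on both sides.

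The start of 4 genes, picked with their values known from the members past both thresholds, is shown as a point of reference for 2 that rose and 2 that fell. PRC2, the complex in which Ezh2 works, is known to act at promoters rich in CG dinucleotides in mammals, so CG is set in capitals; CG is its own complement, and the count is the same on either strand. Each run covers 250 bases before to 50 bases after the RefSeq start, 5′ to 3′ on the gene's own strand, on GRCm38.p6. Kcnj5 (chr9:32344295-32344594, minus strand) and Kcnh1 (chr1:192190527-192190826, plus strand) were the most raised members above 5 CPM. Kcne2 (chr16:92292139-92292438, plus strand, the first of 2 starts) and Kcng4 (chr8:119635631-119635930, minus strand) were lowered and had no overlap with another gene.
Kcnj5: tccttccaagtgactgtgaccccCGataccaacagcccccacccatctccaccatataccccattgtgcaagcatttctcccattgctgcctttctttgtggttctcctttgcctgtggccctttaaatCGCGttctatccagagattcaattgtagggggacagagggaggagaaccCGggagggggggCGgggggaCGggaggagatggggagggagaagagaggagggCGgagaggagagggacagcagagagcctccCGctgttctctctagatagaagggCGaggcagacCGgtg
Kcnh1: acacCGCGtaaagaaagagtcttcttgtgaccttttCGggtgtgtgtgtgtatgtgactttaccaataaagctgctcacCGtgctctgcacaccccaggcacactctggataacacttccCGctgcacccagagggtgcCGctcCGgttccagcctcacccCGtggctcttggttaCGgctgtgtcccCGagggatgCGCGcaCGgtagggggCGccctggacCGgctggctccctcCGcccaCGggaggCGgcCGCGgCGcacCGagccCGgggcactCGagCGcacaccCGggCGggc
Kcne2: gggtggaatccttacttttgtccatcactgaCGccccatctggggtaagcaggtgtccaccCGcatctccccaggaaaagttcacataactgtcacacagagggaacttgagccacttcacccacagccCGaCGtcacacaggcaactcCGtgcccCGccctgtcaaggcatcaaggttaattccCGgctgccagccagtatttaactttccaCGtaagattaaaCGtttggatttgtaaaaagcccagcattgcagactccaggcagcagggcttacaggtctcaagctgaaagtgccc
Kcng4: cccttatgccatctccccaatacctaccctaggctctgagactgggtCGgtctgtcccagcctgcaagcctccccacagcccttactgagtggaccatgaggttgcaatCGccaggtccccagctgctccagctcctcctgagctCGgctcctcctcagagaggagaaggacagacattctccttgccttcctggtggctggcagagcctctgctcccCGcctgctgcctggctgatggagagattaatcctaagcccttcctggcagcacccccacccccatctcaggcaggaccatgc
These windows held 10, 27, 9 and 4 CG. Of all 32817 distinct promoter windows of this length 94.6% held at least 1, and 43.4%, 15.5%, 45.8% and 68.6% held at least as many as each of the 4 in that order. An entry was found for 53 of the 72 members. The median was 12 CG in members, 17.5 in the 24 called higher, 9 in the 6 called lower, 11 in the 23 not called and 7 in all windows. The range was 1 to 49 in the members, with 49 in Kcng3 and 48 in Kcnmb4, and 3 in Kcnc2, Kcnf1 and Kcnq5. Each member is counted by 1 window, although some list more starts (4 in Kcnc2 and Kcnk2, 3 in Kcnab1, 2 in Kcnq5). A window may therefore miss other promoters of a gene, and that of Kcnh2 lies inside the gene as placed by GENCODE. CG counts are a description of these windows, and no chromatin measurement enters here.

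The voltage-gated alpha subunits, which form the pores that open on depolarisation, were the largest class. Of the 30 such genes 25 were members, and 15 of them rose and 1 fell, where 13.9% of all genes were called higher and 13.6% lower. The median log2 fold change was 0.35. Within the Kcna subfamily, the low-threshold channels of axons and their initial segments, 5 of 6 members rose. Kcna2, a main subunit of the channels beside the nodes of myelinated axons, read 77.1, 86.0 and 77.8 CPM in the GFP libraries and 123, 124 and 122 CPM in the Ezh2-Y726D libraries. The 3 Ezh2-Y726D libraries of Kcna2 lay within 2 CPM of each other and well above every GFP library. The log2 fold change was 0.62 (SE 0.046, edgeR adjusted p = 1.64e-11). Kcna4, which gives an inactivating A-type current, read 35.8, 33.1 and 32.2 CPM with GFP and 46.2, 46.1 and 45.3 CPM with Ezh2-Y726D (log2 fold change 0.42). Kcna5 rose by 0.34 and Kcna6 by 0.29 on the log2 scale, and Kcna1, the usual partner of Kcna2, by 0.25, the smallest called change of the subfamily (edgeR adjusted p = 0.00336). The exons of Kcna6 overlap Gm26673 on the opposite strand over 39.6% of their length, and the counting may not have used the strand. Kcna3, known for its part in T lymphocytes and microglia, read 9.16, 9.16 and 6.80 CPM with GFP and 9.66, 7.94 and 8.68 CPM with Ezh2-Y726D. Its groups overlapped, and its log2 fold change was 0.01 (SE 0.12), which turned negative under some alternatives.

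Kcnc1, Kcnc2 and Kcnc4 encode fast channels that let neurons fire at high rates, and each of them rose. Kcnc1 read 68.7, 68.9 and 66.3 CPM in the GFP libraries and 100, 97.9 and 89.2 CPM in the Ezh2-Y726D libraries. Kcnc2 read 60.7, 66.6 and 56.2 CPM with GFP and 85.6, 90.9 and 90.8 CPM with Ezh2-Y726D, and the log2 fold changes were 0.49 (SE 0.050) and 0.54 (SE 0.052). In both genes no GFP library reached the lowest Ezh2-Y726D library. Kcnc4 read 14.1, 17.9 and 8.46 CPM against 23.5, 23.2 and 21.0 CPM. GFP replicate 3 was low for Kcnc4, and the log2 fold change of 0.69 (SE 0.11, edgeR adjusted p = 1.08e-05) ran from 0.57 to 0.81 as each library was left out.

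Kcnb2, a delayed rectifier that carries sustained current, was not called. It read 49.8, 54.3 and 50.1 CPM in the GFP libraries and 48.9, 54.2 and 58.0 CPM in the Ezh2-Y726D libraries, and the groups overlapped (log2 fold change 0.07, SE 0.062). Of the Kcnd genes, which carry the A-type current of dendrites, Kcnd3 rose from 84.0, 89.3 and 72.6 CPM to 110, 115 and 111 CPM (log2 fold change 0.44, SE 0.051). Kcnd2 and Kcnd1 were lower in level and not called, with log2 fold changes of 0.18 (SE 0.099) and 0.31 (SE 0.19).

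Members of the Kcnh subfamily, the ether-a-go-go channels, moved in both directions. Kcnh1 (chr1:192190774-192510159), a slowly activating channel, read 12.1, 11.7 and 9.62 CPM in the GFP libraries and 22.3, 21.1 and 22.0 CPM in the Ezh2-Y726D libraries. The groups lay far apart, with a log2 fold change of 0.91 (SE 0.084, fold 1.88, edgeR adjusted p = 1.31e-09). Kcnh5, its closest relative, rose by 0.35 (SE 0.049). Kcnh7, of the group whose current resists repeated depolarisation, read 30.1, 32.0 and 34.5 CPM with GFP and 45.2, 49.8 and 49.7 CPM with Ezh2-Y726D and rose by 0.61 (SE 0.064, edgeR adjusted p = 1.26e-08). Kcnh6, of the same group, went the other way. It read 40.6, 35.7 and 38.8 CPM in the GFP libraries and 25.0, 25.8 and 27.1 CPM in the Ezh2-Y726D libraries, a log2 fold change of -0.58 (SE 0.063, edgeR adjusted p = 2.66e-08). Kcnh2, the third gene of that group and the most abundant per length of the subfamily, read 103, 91.6 and 88.1 CPM with GFP and 102, 107 and 100 CPM with Ezh2-Y726D and was not called (log2 fold change 0.10, SE 0.050). Without GFP replicate 1 it passed the threshold, at 0.19 (edgeR adjusted p = 0.0110), and without GFP replicates 2 and 3 it was at -0.006. Kcnh8 had few counts and was not called.

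The Kcnq genes carry the M-current, which muscarinic receptors shut and which restrains repeated firing. Kcnq3, found at axon initial segments, rose. It read 5.61, 6.71 and 4.64 CPM with GFP and 9.81, 9.12 and 9.08 CPM with Ezh2-Y726D (log2 fold change 0.72, SE 0.12, edgeR adjusted p = 2.98e-05). All GFP libraries stayed below the Ezh2-Y726D libraries. Kcnq5 was not called, with a log2 fold change of -0.08 (SE 0.26), and Kcnq1, the heart and epithelial member, did not meet the count rule. Whether Kcnq3 and Kcnq5 differ in response was not tested.

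**Figure D3:**
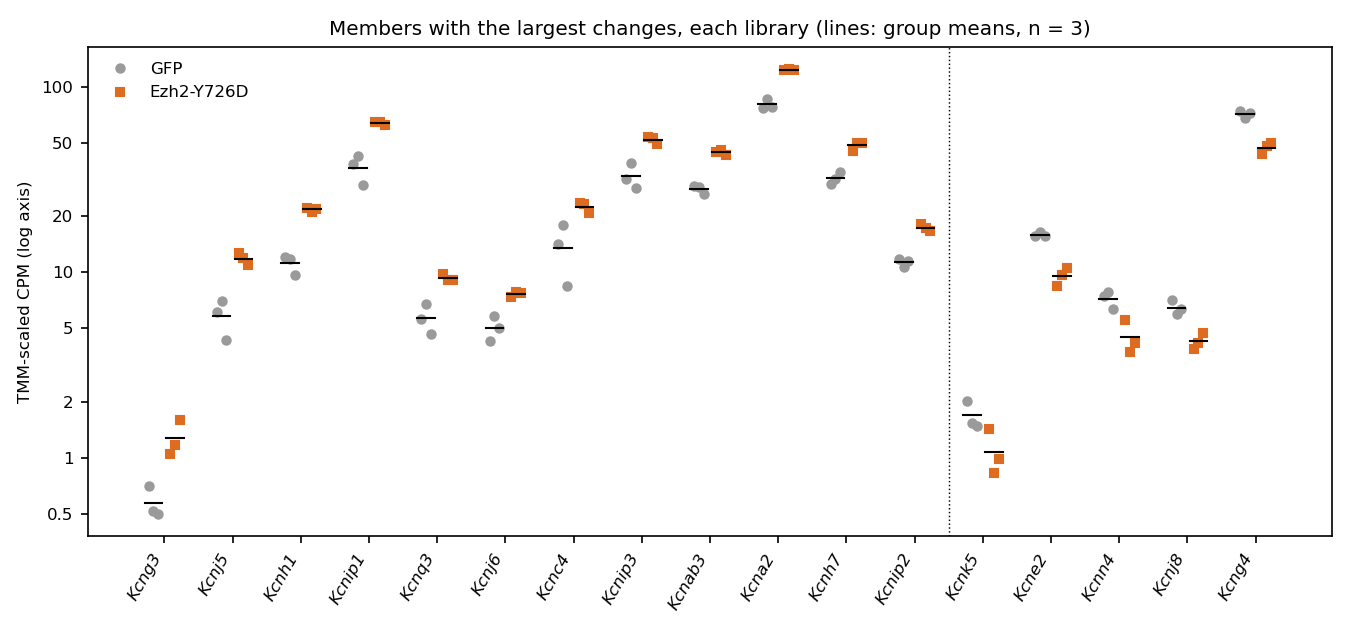
TMM-scaled CPM on a log axis in each of the 6 libraries for the 12 members called higher (left of the dotted line) and the 5 called lower with a fold change over 1.5. Gray circles are GFP libraries, orange squares Ezh2-Y726D libraries and black lines group means. Groups that do not overlap were a condition for drawing a gene here, and Kcng3 and Kcnk5 are the 2 genes near 1 CPM.

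Of the silent subunits, 7 of 10 genes were members, and 2 rose and 1 fell, few genes to set against the 13.9% and 13.6% of all genes. Kcng4 (ENSMUSG00000045246, chr8:119623854-119635680), which joins Kcnb channels and is used as a marker of some bipolar and ganglion cells, read 73.8, 67.8 and 71.8 CPM in the GFP libraries and 43.4, 47.6 and 49.5 CPM in the Ezh2-Y726D libraries. Each Ezh2-Y726D library was below every GFP library, with a log2 fold change of -0.61 (SE 0.056, fold 0.654, edgeR adjusted p = 1.21e-09). The bipolar marker list fell in the same libraries, with 9 of its 10 genes called lower. The RGC marker list did not, with 3 of its genes called higher and 1 lower, and the part of either cell type was not tested. Kcng3 had the largest log2 fold change of all members, 1.02, but rested on 20, 4 and 3 counts in the GFP libraries and 28, 24 and 47 in the Ezh2-Y726D libraries. It met the count rule through the Ezh2-Y726D libraries alone, the group in which it is high. Its SE was 0.32 and its edgeR adjusted p 0.0185. The call was lost without GFP replicate 1 (log2 fold change 1.33), without GFP replicate 2 (0.96) and without Ezh2-Y726D replicate 3 (0.81), by DESeq2 (1.06) and in the fit with 1 GFP library (0.87), with adjusted p-values from 0.0549 to 0.129. Kcns2, which also modifies Kcnb channels, rose by 0.32 (SE 0.079), a call that was lost when counts were thinned to the shallowest library. Kcnv2, the photoreceptor partner of Kcnb channels, read 79.4, 78.2 and 86.9 CPM with GFP and 80.4, 76.7 and 84.6 CPM with Ezh2-Y726D. Its log2 fold change was -0.0028 (SE 0.050), with a sign that changed between alternatives, beside rod markers that summed slightly higher and cone markers that summed lower. Kcnf1, Kcns1 and Kcns3 were not called, at mean levels under 2 CPM.

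The Kcnma, Kcnn, Kcnt and Kcnu genes were grouped as calcium- or sodium-activated, a label that does not hold for Kcnu1. Of these 8 genes, 2 rose and 1 fell (25.0% and 12.5%), which is near the share over all genes (13.9% and 13.6%). Kcnma1, the large-conductance BK channel that calcium and voltage open together, was one of the most abundant members and did not pass the test. It read 205, 217 and 205 CPM in the GFP libraries and 197, 210 and 218 CPM in the Ezh2-Y726D libraries (log2 fold change -0.0036, SE 0.043). Of the small-conductance channels that make the medium afterhyperpolarisation, Kcnn2 rose from 14.7, 14.2 and 13.3 CPM with GFP to 19.0, 22.7 and 19.9 CPM with Ezh2-Y726D (log2 fold change 0.51, SE 0.085). Kcnn1 and Kcnn3 were not called, at 0.23 (SE 0.10) and -0.10 (SE 0.12). Kcnn4, the intermediate-conductance channel of immune cells and microglia, fell. It read 7.40, 7.87 and 6.30 CPM against 5.56, 3.72 and 4.17 CPM, a log2 fold change of -0.69 (SE 0.15, edgeR adjusted p = 5.03e-04). In the same libraries 9 of 12 microglia and macrophage markers and 7 of 7 T cell markers were also lower. Kcna3, Kcnk13 and Kcnk6, likewise placed in immune cells, were not called. Of the 8 tested Kcn genes that background places in other cells, 1 was higher, 2 were lower (Kcnn4 and Kcnj8) and 5 were not called. Whether the fall of Kcnn4 goes with these cells was not tested. Kcnt1, the sodium-activated channel, rose by 0.32 (SE 0.070), and Kcnt2 and Kcnu1 were not called at about 2 CPM each. Their log2 fold changes were 0.51 (SE 0.21) and 0.64 (SE 0.26), and Kcnu1 passed without GFP replicate 3 and without a filter on low counts.

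Inward rectifiers gave 10 members of 15 genes, of which 5 rose and 1 fell (median log2 fold change 0.22), beside 13.9% higher and 13.6% lower over all genes. The 4 G protein-gated subunits, Kcnj3, Kcnj5, Kcnj6 and Kcnj9, which open when transmitters such as GABA and acetylcholine act on their metabotropic receptors, all rose. Kcnj5 (ENSMUSG00000032034, chr9:32314707-32344350) read 6.10, 6.97 and 4.31 CPM in the GFP libraries and 12.7, 11.9 and 10.9 CPM in the Ezh2-Y726D libraries. The lowest Ezh2-Y726D library was above the highest GFP library by over 3 CPM, and the log2 fold change was 0.98 (SE 0.12, fold 1.97, edgeR adjusted p = 2.13e-07). Kcnj6 read 4.24, 5.80 and 4.98 CPM with GFP and 7.37, 7.84 and 7.76 CPM with Ezh2-Y726D (log2 fold change 0.70, SE 0.13, edgeR adjusted p = 1.37e-04). Kcnj3 rose by 0.56 (SE 0.069), though 31.1% of its exons lie under Gm26794 on the other strand. Kcnj9, the most abundant of the 4, read 103, 116 and 104 CPM with GFP and 128, 130 and 125 CPM with Ezh2-Y726D and rose by 0.26 (SE 0.045).

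The pores of ATP-sensitive channels, which link metabolism to excitability, were Kcnj8 and Kcnj11. Kcnj8, the form found in pericytes and smooth muscle, read 7.09, 5.93 and 6.30 CPM in the GFP libraries and 3.87, 4.17 and 4.68 CPM in the Ezh2-Y726D libraries. It fell by 0.65 on the log2 scale (SE 0.14, edgeR adjusted p = 4.95e-04). Without GFP replicate 1 its log2 fold change was -0.52 and its edgeR adjusted p 0.0526. Abcc9, the regulatory receptor that pairs with it, read 19.3, 19.7 and 26.2 CPM with GFP and 12.97, 13.3 and 12.8 CPM with Ezh2-Y726D (log2 fold change -0.68). Both genes stand in the pericyte list and are themselves among the 5 of 6 that were lower. Of its other genes, Pdgfrb, Acta2 and Rgs5 were lower by less (log2 fold change -0.21, -0.32 and -0.38). Cspg4 was not called (-0.47). Kcnj11, the form of neurons and beta cells, read 6.81, 6.97 and 6.80 CPM with GFP and 7.74, 7.74 and 7.59 CPM with Ezh2-Y726D and was not called (log2 fold change 0.17, SE 0.11), nor was its partner Abcc8 (log2 fold change -0.06). Kcnj10, the main potassium channel of Müller glia, read 78.2, 80.2 and 89.4 CPM in the GFP libraries and 92.7, 91.5 and 91.0 CPM in the Ezh2-Y726D libraries, where GFP replicate 3 was within 2 CPM of the lowest Ezh2-Y726D library. It rose by 0.17 (SE 0.048), a call that was lost without GFP replicate 1 (log2 fold change 0.12, edgeR adjusted p = 0.153) and with thinned counts, while 4 of the 9 Müller glia markers were lower and 2 higher, Kcnj10 among them. The strong rectifiers Kcnj2, Kcnj12 and Kcnj14 did not pass the test. Kcnj2 read 9.26, 8.64 and 7.63 CPM with GFP and 9.88, 11.1 and 10.9 CPM with Ezh2-Y726D (log2 fold change 0.27, edgeR adjusted p = 0.0581) and passed it without Ezh2-Y726D replicate 1 (0.32, adjusted p = 0.0345). Kcnj12 was at -0.20 (SE 0.084) and Kcnj14 at 0.02 (SE 0.059).

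Of 12 two-pore channel genes 10 were members, 2 rose, 2 fell and 6 were not called, which is near the 13.9% and 13.6% of all genes, and the median log2 fold change was -0.24. Kcnk1, the weak rectifier that is the most abundant of them per length, read 63.3, 60.4 and 57.7 CPM in the GFP libraries and 74.8, 75.4 and 72.4 CPM in the Ezh2-Y726D libraries (log2 fold change 0.28, SE 0.050). The acid-sensitive relatives Kcnk3 and Kcnk9 moved in opposite directions. Kcnk9 read 32.8, 30.1 and 25.0 CPM with GFP and 33.9, 35.7 and 35.9 CPM with Ezh2-Y726D (log2 fold change 0.20, edgeR adjusted p = 0.0284), and Kcnk3 read 19.7, 17.4 and 18.7 CPM with GFP and 15.03, 14.3 and 16.03 CPM with Ezh2-Y726D (log2 fold change -0.32, edgeR adjusted p = 0.00284). The Kcnk9 call held in 2 of 6 fits that each left out a library, being lost without GFP replicates 2 or 3 and Ezh2-Y726D replicates 2 or 3 (log2 fold change 0.14 to 0.34 over the 6 fits), and that of Kcnk3 in 5 of 6, being lost without GFP replicate 1 (adjusted p = 0.117). The Kcnk9 call was also lost by DESeq2, with the length correction, with library totals without the rRNA gene and in the fit with GFP replicate 1 as the only GFP library. Kcnk5, the alkaline-activated channel known from kidney and epithelia, read 2.03, 1.55 and 1.49 CPM against 1.43, 0.833 and 0.983 CPM, from 58, 12 and 9 counts against 38, 17 and 29. Its groups came close to touching, and the log2 fold change of -0.74 had an SE of 0.27 and an edgeR adjusted p of 0.0392. Without GFP replicate 1 the log2 fold change was -0.48 (adjusted p = 0.465), and the call was also lost without Ezh2-Y726D replicate 2 (-0.61) or 3 (-0.65), by DESeq2 (-0.70, adjusted p = 0.203) and with the replicate block (-0.61, edgeR adjusted p = 0.101). Kcnk13, a halothane-inhibited channel of microglia, and Kcnk6, a channel of macrophages and vessels, were not called, with log2 fold changes of -0.30 (SE 0.26) and -0.18 (SE 0.13). The mechanosensitive channels Kcnk2, Kcnk4 and Kcnk10 were under 3 CPM in every library and not called, nor was Kcnk12, and the exons of Kcnk2 and Kcnk4 overlap another gene in part. Kcnk10 (log2 fold change 0.58, from 0.48 to 1.08 as each library was left out) passed the threshold without GFP replicate 1.

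Auxiliary subunits gave 11 members of 14 genes, of which 7 rose and 1 fell (median log2 fold change 0.31), against a background of 13.9% and 13.6%. All 4 Kcnip genes, which encode calcium-binding proteins that bring Kcnd channels to the membrane, rose, with a median of 0.63, and 3 of them by a fold over 1.5. Kcnip1 read 38.1, 42.0 and 29.4 CPM in the GFP libraries and 64.7, 64.7 and 61.9 CPM in the Ezh2-Y726D libraries. GFP replicate 3 was the lowest, and the Ezh2-Y726D libraries lay within 3 CPM of each other. The log2 fold change was 0.78 (SE 0.068, edgeR adjusted p = 5.96e-10). Kcnip3 read 31.6, 38.7 and 28.5 CPM with GFP and 53.5, 53.0 and 48.9 CPM with Ezh2-Y726D (log2 fold change 0.66, SE 0.071). Kcnip3 is also known as a calcium-sensitive transcriptional repressor. Kcnip2 read 11.8, 10.7 and 11.4 CPM with GFP and 18.2, 17.4 and 16.6 CPM with Ezh2-Y726D (0.60 on the log2 scale, SE 0.086), and Kcnip4 rose by 0.44 (SE 0.079). Among their pores, Kcnd3 rose and Kcnd1 and Kcnd2 were not called.

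Of the Kcnab genes, whose products bind Kcna channels from inside the cell, Kcnab3 changed most. It read 29.0, 28.9 and 26.5 CPM in the GFP libraries and 44.7, 45.5 and 42.8 CPM in the Ezh2-Y726D libraries, a log2 fold change of 0.64 (SE 0.061, edgeR adjusted p = 2.70e-09). Kcnab2 read 193, 171 and 172 CPM with GFP and 212, 210 and 203 CPM with Ezh2-Y726D and rose by 0.21 (SE 0.044), and the call was lost, at 0.11, in the fit with GFP replicate 1 as the only GFP library, whose spread comes from the Ezh2-Y726D libraries. Kcnab1 read 66.6, 64.0 and 64.7 CPM with GFP and 65.5, 68.9 and 66.1 CPM with Ezh2-Y726D, and its groups overlapped. Kcne2 (ENSMUSG00000039672, chr16:92292389-92298129), a small subunit that slows or reshapes several channels and is high in choroid plexus and stomach, fell. It read 15.6, 16.4 and 15.8 CPM in the GFP libraries and 8.46, 9.65 and 10.5 CPM in the Ezh2-Y726D libraries, with no overlap (log2 fold change -0.73, SE 0.096, fold 0.604, edgeR adjusted p = 7.45e-07). Kcne1l, as the symbol stands in the gene name table, was not called. Kcnmb4, the neuronal partner of Kcnma1, rose by 0.31 (SE 0.10, edgeR adjusted p = 0.0268). Its call held in 3 of 6 fits that each left out a library, being lost without GFP replicate 1 and without Ezh2-Y726D replicates 1 or 2 (highest adjusted p 0.207), and it was lost by DESeq2, with thinned counts and with 1 GFP library. Of its exons, 31.5% lie under Kcnmb4os2 on the other strand. Kcnmb2 was not called, nor was Kcnrg, a regulator of channel assembly that forms no pore.

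Levels between genes were compared as TMM-scaled CPM per kb of exon. Among the highest members were, in order of the mean over all libraries, Kcnab2, Kcna5, Kcnk1, Kcnj9, Kcnh2, Kcnh5, Kcnj14, Kcnj10 and Kcnv2. Kcnab2 was at 32.1 CPM per kb in the GFP libraries and 37.4 in the Ezh2-Y726D libraries, next to Kcna5 at 29.0 and 37.1, and with Ezh2-Y726D these neighbours did not differ beyond their spread. Kcnk1 was at 27.1 and 33.2 CPM per kb. Kcnj14, Kcnj10 and Kcnv2 stood at 15.3 to 15.95 CPM per kb in the GFP libraries, too close to be ordered. Kcng4 held rank 11, at 18.7 CPM per kb in the GFP libraries and 12.3 in the Ezh2-Y726D libraries. The largest changes were in other genes, since Kcnj5, Kcnh1 and Kcng3 ranked 49, 45 and 67 of 72. The sum over all members was 439 to 460 CPM per kb in the GFP libraries and 518 to 527 in the Ezh2-Y726D libraries. Within this sum the voltage-gated alpha subunits took 41.6% to 42.4% and 43.6% to 44.1%, and auxiliary subunits 19.3% to 20.1% and 20.8% to 21.4%. The share was lower with Ezh2-Y726D in the other roles that hold several members. Silent subunits took 8.04% to 8.94% and 6.05% to 6.54%, inward rectifiers 16.1% to 16.6% and 15.9% to 16.02%, two-pore channels 8.48% to 8.84% and 8.38% to 8.47%, and calcium- or sodium-activated channels 4.692% to 4.91% and 4.34% to 4.686%. Of these 4 roles, the silent subunits were lower in summed level, at 36.5 to 39.2 CPM per kb with GFP and 31.5 to 33.9 with Ezh2-Y726D. The other 3 were higher in summed level while their share of a larger total was lower, the inward rectifiers at 72.96 to 74.3 and 82.96 to 83.7 CPM per kb, the two-pore channels at 37.6 to 40.6 and 43.4 to 44.2, and the calcium- or sodium-activated channels at 21.3 to 22.3 and 22.6 to 24.3. In the shares of these 6 roles the groups did not overlap, narrowly so in the last 3, and 3 libraries against 3 cannot give an exact two-sided permutation p under 0.1.

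**Figure D4:**
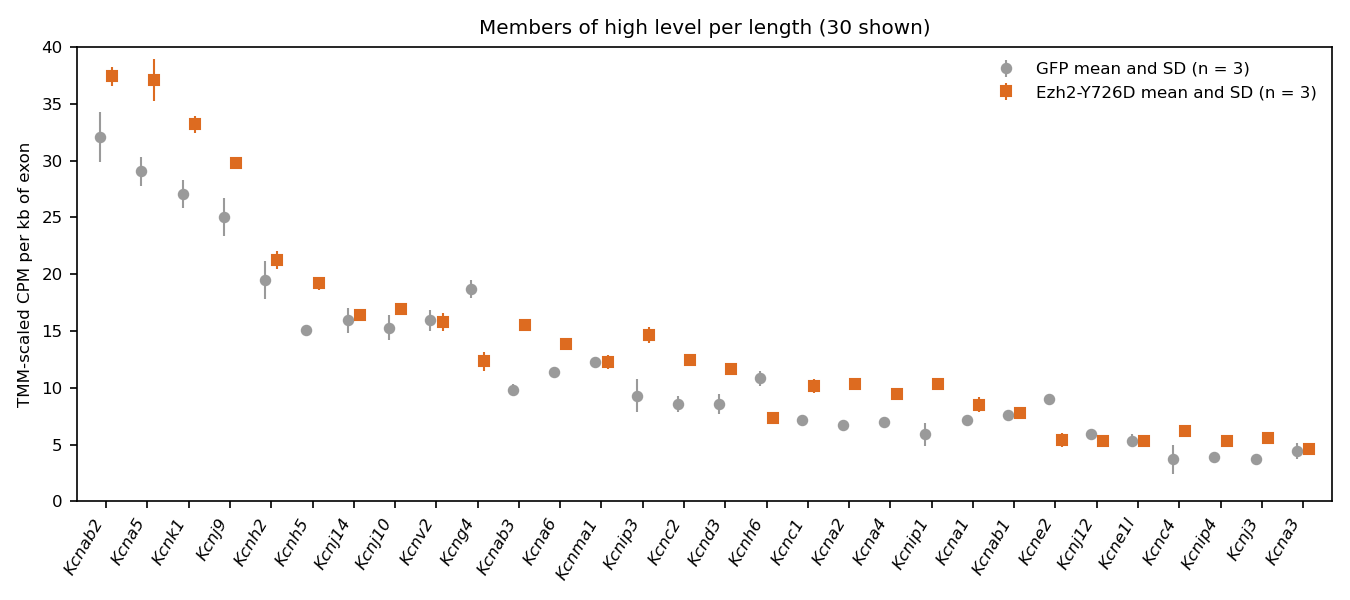
Mean TMM-scaled CPM per kb of exon for 30 members of high level, with the SD over 3 libraries. Gray circles are GFP and orange squares Ezh2-Y726D. Kcnab2 and Kcna5 head the order with Ezh2-Y726D, and Kcng4, Kcnh6 and Kcne2 are lower with Ezh2-Y726D.

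Some members are neighbours on a chromosome, and neighbours did not always move alike. Their positions on GRCm38 were taken from GENCODE vM21. Kcna5 (chr6:126532551-126535412), Kcna1 (chr6:126640397-126646384) and Kcna6 (chr6:126708329-126740674) follow each other and all rose, by 0.34, 0.25 and 0.29 on the log2 scale. Kcna3 (chr3:107036169-107038070) and Kcna2 (chr3:107101146-107115005) also lie side by side, and Kcna2 rose by 0.62 while Kcna3 was at 0.01. Kcnj9 (chr1:172320501-172329318) and Kcnj10 (chr1:172341210-172374085) lie next to each other and rose by 0.26 and 0.17.

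Genes outside the Kcn symbols whose products hold, anchor or regulate potassium channels were read from a list of 21, of which 19 were tested. Of these 11 were higher and 1, Abcc9, was lower, where 13.9% and 13.6% of all genes tested were, with a median log2 fold change of 0.21. Dpp6 and Dpp10, which join Kcnd pores together with the Kcnip proteins, both rose, Dpp6 from 123, 131 and 124 to 178, 185 and 169 CPM (log2 fold change 0.49) and Dpp10 from 6.45, 6.58 and 7.13 to 10.3, 11.6 and 13.4 CPM (0.84). Cntn2 and Cntnap2, the adhesion molecules that hold Kcna channels beside the nodes, rose by 0.52 and 0.24. Amigo1, a subunit of Kcnb channels, read 71.6, 67.7 and 75.5 CPM and 88.4, 91.6 and 91.8 CPM, and rose by 0.34 while Kcnb2 was not called. Ank3, the ankyrin that anchors Kcnq3 at the initial segment, rose by 0.32, and Dlg2, a scaffold for Kcna channels, by 0.42. Its relative Dlg4 rose by 0.13 only. Dlg1, Vapa and Vapb were not called (0.095, 0.06 and 0.08), and 7 of the 19 genes tested were not called.

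Set beside other ion channel pores, the potassium channel family was not the only family with more genes higher than lower. Of the 13 genes tested for voltage-gated sodium channels and Nalcn, 8 were higher and 0 lower (median log2 fold change 0.36). Of 10 calcium channel alpha1 genes, 7 were higher and 3 lower (median 0.36), beside the same 13.9% and 13.6% of all genes. The difference between the families was not tested.

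Of the 72 members, 59 had at least 10 counts in all 6 libraries. The other 13 were all under 10 counts in GFP replicate 2 or 3, the shallowest libraries, and all 72 passed the filter on low counts in the test. Of these 13, 11 met the count rule through the Ezh2-Y726D libraries alone, which are deeper than GFP replicates 2 and 3 once rRNA is set aside, and 0 through the GFP libraries alone. Kcng3, Kcnk4, Kcnk10 and Kcns3 reached 10 counts in 1 GFP library only. Just inside were Kcnrg, with 21, 5 and 2 counts in the GFP libraries and 28, 14 and 8 in the Ezh2-Y726D libraries, and Kcns1, with 16, 1 and 2 and 15, 16 and 6. Just outside were Kcne4 with 16, 1 and 4 and 11, 6 and 7 counts, Kcnj16 with 7, 3 and 4 and 11, 10 and 8, and Kcnj4 with 1, 1 and 1 and 10, 0 and 10. Of the 18 genes left out, 7 had no library above 3 counts.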

How the data were processed

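RNA of CD90.2-positive retinal cells from 3 GFP and 3 Ezh2-Y726D libraries was made into stranded total RNA libraries. The deposited values are raw read counts, 1 whole number for each gene and library, which the authors had not normalized. The submitters' processing notes name STAR 2.7.0d and GRCm38, and the counting tool, annotation and strand setting are not given in the sources used here. Symbols were found for 32325 of 32371 identifiers, and 32342 were in GENCODE vM21, from which protein-coding status, coordinates, exon length and exon overlap were taken. Promoter windows are from RefSeq.

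From the deposited counts, edgeR 4.0.16 (R 4.3.3) gave TMM factors (0.647 to 1.31), CPM and the quasi-likelihood test after filterByExpr (10 counts, total 15), with Benjamini-Hochberg adjustment over 18138 genes and a call at 0.05. The fold threshold of 1.5 is the study's. Standard errors are the log2 fold change over the square root of F. The common biological coefficient of variation was 0.0442, and counts of library pairs differed by a chi-square of 1.49 to 3.03 per degree of freedom within groups, so no library was counted as a copy. The procedure was tested on simulated data.

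The members and all gene lists were chosen with earlier results of these data known. Genes named were the members past both thresholds with groups that do not overlap (at most 14 per direction), the 10 highest per length, those that background places in other cells, and Ezh2, and each further member is named in the account of its subfamily, except for a few that enter all counts and sums but are not reported here. Other genes named (from the marker and partner lists) were singled out with their values known. Alternatives were RLE factors, library totals with and without the rRNA gene, DESeq2 1.42.0, other filters, thinned counts, a length correction, the replicate block, and libraries left out.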

Additional observations from a re-analysis of the deposited data

How the results depend on the processing

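The 72 members kept a positive median log2 fold change under every alternative run, from 0.23 to 0.77 against 0.26. Of the 40 called members, between 34 and 40 were called in the same direction under each alternative except scaling by library totals, which gave 0 of 40. With library totals, where rRNA counts take part in the scaling, 0 members were higher, 0 lower, 0 higher and 0 lower with a fold over 1.5, and the members' median was 0.77 while that of all genes was 0.49 and 65 genes in all were called; relative to all genes the members' median was then 0.28. Leaving out each library in turn gave 31 to 33 members higher and 4 to 7 lower, and with a fold over 1.5 gave 10 to 12 higher and 2 to 6 lower, the low values of the falls being those without GFP replicate 1 (4 and 2) and without Ezh2-Y726D replicate 1 (3 with the fold); the cause was not tested. With DESeq2 30 were higher and 6 lower. With the replicate block 33 were higher and 6 lower, and 39 of the 40 calls remained, Kcnk5 being lost; the numbers pair no samples by their labels, and deviations of same-numbered libraries correlated at 0.136, 0.051 and 0.0391. Over the named genes, 434 of 491 values kept direction and side of the threshold, 37 lost the call, 2 gained it and 18 changed sign, all in genes that were not called. These were, without the 2 GFP libraries of highest rRNA share (1 GFP library left, so that the spread is that of the other group), Kcnh2 at -0.00560, Kcnj14 at -0.0553, Kcnv2 at 0.0256 and Kcna3 at -0.0557; with library totals without the rRNA gene, Kcnj14 at -0.00145 and Kcna3 at -0.00900; Kcnv2 at 0.00166 with at least 10 counts in every library, 0.00390 with thinned counts, 0.0102 without a filter and 0.50 with library totals; and with library totals, Kcnk13 at 0.13 and Kcnk6 at 0.30. As each library was left out, Kcnj14 ran from -0.0235 to 0.10, Kcnv2 from -0.0424 to 0.0330 and Kcna3 from -0.0646 to 0.12. Depth limits the 13 members with under 10 counts in some library, for which the standard error reached 0.49.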

Other observations

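Among the 18 protein-coding Kcn genes left out by the count rule, several are known from other tissues and were near the limit of a count of 0. Kcnj1, the renal outer medullary channel, had 0, 0 and 0 counts in the GFP libraries and 0, 1 and 1 in the Ezh2-Y726D libraries. Kcna7, known from skeletal muscle and heart, had 0, 0 and 0 and 0, 1 and 0 counts, and Kcnq1, the channel of heart and epithelia, 3, 2 and 0 and 3, 1 and 4. Kcnv1, a silent relative of Kcnv2, had 2, 1 and 0 and 2, 3 and 4. Kcnj13, the channel of the retinal pigment epithelium and of Müller glia, reached more, with 10, 4 and 0 and 5, 2 and 4 counts, and 49.1% of its exons lie under Gigyf2 on the other strand. No fold is given for any of these genes.

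Of 4 non-coding genes named after Kcn loci, Kcnq1ot1, the antisense RNA of the imprinted Kcnq1 locus (chr7:143203458-143296549, minus strand), had far more counts than Kcnq1. It read 119.5, 131.7 and 122.7 CPM in the GFP libraries and 154.3, 173.1 and 183.8 CPM in the Ezh2-Y726D libraries, with no overlap, which over its exon length is 1.34 and 1.83 CPM per kb in the mean. Its log2 fold change was 0.46 (SE 0.052, edgeR adjusted p = 5.65e-08), and it stayed past the threshold in 6 of 6 fits that each left out a library. Kcnd3os, which lies opposite the start of Kcnd3, was at 0.31 (SE 0.31) and was not called, beside a Kcnd3 that rose. Kcnmb4os2 and Kcnab3os had at most 19 counts in any library and were not tested.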
